A study of Mus musculus with 12 samples.

Results

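Integrin subunits, laminin chains and the basement membrane glycoproteins nidogen, perlecan and agrin were described in differentiating 3T3-L1 cells. The members were the genes of the table whose symbols begin with Itga or Itgb, leaving out Itgb1bp1, Itgb3bp and Itgbl1, the genes of the laminin alpha, beta and gamma series, and Nid1, Nid2, Hspg2 and Agrn. This rule found 39 of 16414 genes, which were 25 integrin subunits, 10 laminin chains and 4 other glycoproteins. Of the 39, 29 passed the filter on low counts and were tested, and 10 did not. The members were chosen by name and not by any measured value.

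3T3-L1 is a mouse fibroblast line, derived as a single clone, that turns into fat-storing cells under hormones. All cells grew on collagen-coated plates and were transfected for 48 h, either with a mimic of miR-335-5p at 20 nM or with a scrambled, non-targeting (NT) mimic whose concentration is not given separately. Each group then received insulin (200 nM), IBMX (0.5 mM), rosiglitazone (2 mM as labelled) and dexamethasone (250 nM) for 3 days. Cells kept to day 6 then had insulin alone for 2 days and plain medium for 1 day. RNA was sequenced as 3 libraries for each of 4 groups, the miR-335-5p and the NT mimic at day 6 (labelled adipocyte) and the same mimics at day 3 (labelled preadipocyte). Day 6 libraries therefore differ from day 3 libraries in time and in the withdrawal of the agents, and these cannot be told apart. The level of miR-335-5p itself was not analysed here.

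Integrins are cell-surface receptors that pair an alpha with a beta subunit and tie the matrix outside the cell to actin inside it. Laminins are trimers of an alpha, a beta and a gamma chain that assemble into the sheet of the basement membrane, where nidogens and perlecan link them to the collagen IV network and agrin connects them to cell-surface receptors. Every mature adipocyte is wrapped in such a basement membrane, whereas fibroblasts sit in an interstitial matrix of fibronectin and fibrillar collagen.

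The mimic is shown first because its seed, bases 2 to 8 and here in capitals, is the stretch that pairs with target transcripts. The sequence is RefSeq's, at chr6:30741314-30741336 of GRCm38.p6 on the plus strand, inside an intron of Mest by the GENCODE M21 annotation of that build.
mmu-miR-335-5p: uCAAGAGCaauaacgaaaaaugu

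Each gene's longest 3′ UTR was searched for matches to this seed, either opposite bases 2 to 8 (GCTCTTG) or opposite bases 2 to 7 followed by an A (CTCTTGA). Of the 29 members tested, 3 held a match (10.3%), compared with 22.6% of the 11427 tested genes with an annotated 3′ UTR. The median 3′ UTR length was 927 bases for these members and 1174 bases for all of those genes. All 3 matches were of the GCTCTTG kind and are given here in capitals with the 10 bases on either side. They lie in Hspg2 (perlecan), Itga11 (a collagen-binding integrin subunit of fibroblasts) and Nid2 (nidogen 2), at bases 889 to 895, 450 to 456 and 100 to 106 of the 3′ UTR in that order.
Hspg2: ccagactgtgGCTCTTGggtcctagag
Itga11: ccttacccttGCTCTTGgttcccaaac
Nid2: gccattatgaGCTCTTGgcacacaagt
A match describes these letters only, and the values of the 3 genes under the mimic are given with the mimic comparisons. Among members that were not tested, Itga2, Itga4, Itga8 and Itgb8 also held matches, and Itgb8 held 5 of them.

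Libraries held 17690653 to 18936781 counts, so 1 count corresponds to 0.0497 to 0.0604 CPM, which are counts scaled to a common library total after TMM normalisation. The members took 0.4% to 0.492% of the counts of a library. Of 8 adipocyte markers, 2 were higher at day 6 under each mimic (Adipoq and Cfd), 1 was lower (Cidec) and 5 were not called, and their summed level was 7006 to 10384 CPM at day 6 and 6593 to 8632 CPM at day 3, so the libraries labelled preadipocyte carried adipocyte transcripts. Among all genes tested, 18.2% were higher and 16.5% lower at day 6 under the miR-335-5p mimic, and 18.8% and 16.7% under the NT mimic. Of 7 preadipocyte or fibroblast markers tested, 4 were higher (Dlk1, Pdgfrb, Vim and S100a4) and 0 lower at day 6. The median log2 fold change of the 7 was 1.46 under the miR-335-5p mimic and 1.21 under the NT mimic, beside 0.02 and 0.03 over all genes. The 8 in that list summed to 2880 to 3551 CPM at day 6 and 1635 to 2031 CPM at day 3. The part of either marker shift in the members' changes between days was not tested. These are bulk samples, in which fewer cells of a type and less RNA per cell cannot be told apart. The labels do not say whether libraries are separate cultures, so p-values measure the spread between these libraries, which may be technical.

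Day 6 was compared with day 3 under each mimic to ask how the members change as differentiation proceeds. Under each mimic the same 15 members passed the test, 13 higher and 2 lower at day 6. Read against all genes tested, 18.2% were higher under the miR-335-5p mimic and 18.8% under the NT mimic, and 16.5% and 16.7% were lower. Of the 29 members, 24 passed the filter on the libraries of either day, and of these 9 were higher, 2 lower and 13 not called under both mimics. The other 5 (Itgad, Itgal, Itgb2, Itgb4 and Lama2) entered the test only through their day 6 libraries and had to differ, so nothing is read from the 4 of them that were called (Itgal was not). The median log2 fold change of the 24 was 0.36 under the miR-335-5p mimic and 0.38 under the NT mimic, against 0.02 and 0.03 over all genes. The collagen-binding subunits Itga1 and Itga11, the subunits Itgb3 and Itgb5 of vitronectin receptors, Itgae, the chains Lamb2 and Lamb3, perlecan and nidogen 2 were higher at day 6, while the laminin-binding subunit Itga3 and the chain Lamc1 were lower.

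**Figure D1:**
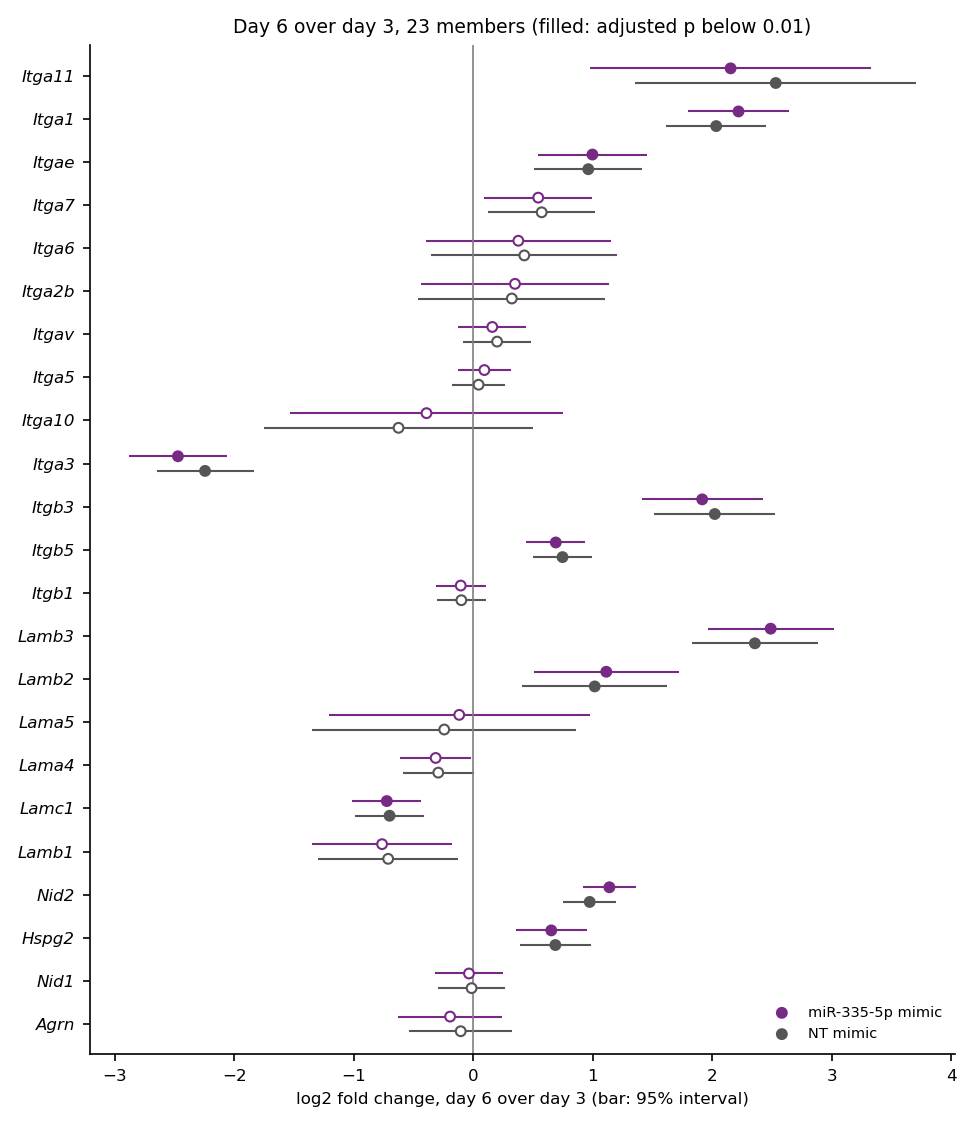
Log2 fold change of day 6 over day 3 (x axis) for 23 of the 24 members that passed the filter on both days (y axis), with the miR-335-5p mimic above the NT mimic in each row, 95% intervals as bars and filled circles for adjusted p below 0.01. The filled circles are the same 11 members under both mimics, with Itga3 farthest to the left and Itga11, Lamb3 and Itga1 farthest to the right.

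Itga3, the alpha subunit of a laminin receptor with Itgb1, was the member that fell most. Its level in the miR-335-5p libraries was 11.3, 10.9 and 11.8 CPM at day 6, against 49.8, 71.2 and 68.1 CPM at day 3. In the NT libraries it was 14.1, 13.3 and 11.9 CPM at day 6, against 45.3, 66.3 and 74.4 CPM at day 3. All 6 libraries of day 6 lay below all 6 of day 3, and the lowest day 3 libraries were those numbered 1. The log2 fold change was -2.47 (95% interval -2.88 to -2.06, adjusted p = 1.781e-06) under the miR-335-5p mimic and -2.24 (95% interval -2.65 to -1.84, adjusted p = 3.399e-06) under the NT mimic by edgeR's quasi-likelihood test.

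The other laminin-binding alpha subunits, Itga6 and Itga7, were not called in the fit of all 12 libraries by group, and were called when the replicate number, a label that 1 library of each group shares, was added to it as a block. In the block fit 27% of all genes were higher and 24.7% lower at day 6 under the miR-335-5p mimic, and 27.5% and 24.3% under the NT mimic. Itga6, which pairs with Itgb1 or Itgb4, had 312, 199 and 226 CPM at day 6 and 269, 173 and 125 CPM at day 3 under the miR-335-5p mimic. Under the NT mimic it had 316, 175 and 186 CPM at day 6 and 253, 134 and 117 CPM at day 3. The days overlapped, but within each replicate number day 6 was above day 3. The log2 fold change of Itga6 was 0.38 (95% interval -0.40 to 1.16, adjusted p = 0.399) under the miR-335-5p mimic and 0.43 (95% interval -0.35 to 1.21, adjusted p = 0.336) under the NT mimic without the block, and 0.42, adjusted p = 0.00877 with it under the miR-335-5p mimic and 0.46, adjusted p = 0.0056 under the NT mimic. Itga7, a laminin receptor subunit best known from muscle, was similar, with 149.9, 146 and 151 CPM at day 6 and 130.5, 89.0 and 86.8 CPM at day 3 under the miR-335-5p mimic. Under the NT mimic Itga7 had 142, 143 and 149 CPM at day 6 and 135, 79.6 and 77.1 CPM at day 3. Its days did not overlap within a mimic, and with the block it was at 0.57, adjusted p = 0.00539 under the miR-335-5p mimic and 0.62, adjusted p = 0.00355 under the NT mimic. Without the block Itga7 was also called under the NT mimic when day 3 replicate 1 was left out.

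Itga1, the alpha subunit of a collagen receptor that binds collagen IV well, rose. It had 11.97, 13.3 and 12.1 CPM at day 6 against 2.96, 1.92 and 3.11 CPM at day 3 under the miR-335-5p mimic. Under the NT mimic it had 11.4, 11.5 and 11.2 CPM at day 6 against 3.35, 2.35 and 2.60 CPM at day 3. The day 6 libraries lay close together and far above every day 3 library. The log2 fold change was 2.22 (95% interval 1.80 to 2.64, adjusted p = 4.664e-06) under the miR-335-5p mimic and 2.03 (95% interval 1.62 to 2.45, adjusted p = 8.607e-06) under the NT mimic. Itga11, a receptor subunit for fibrillar collagen, was also called, from lower levels of 1.99 to 4.37 CPM at day 6 and 0.180 to 0.938 CPM at day 3 over both mimics. Its log2 fold change was 2.15 (95% interval 0.98 to 3.33, adjusted p = 0.00594) under the miR-335-5p mimic and 2.53 (95% interval 1.36 to 3.71, adjusted p = 0.00224) under the NT mimic. Itga11 lost its call without any 1 of 4 libraries of the miR-335-5p mimic (day 3 replicates 1 and 2, day 6 replicates 2 and 3) and without NT day 3 replicate 2. Itga10, a further collagen-binding subunit, stayed at 0.559 to 2.24 CPM and was not called.

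Among the beta subunits, Itgb3 and Itgb5, which pair with Itgav to bind vitronectin and other ligands with the RGD motif, were higher at day 6. Itgb3 had 45.5, 31.1 and 29.5 CPM at day 6 against 9.68, 8.16 and 10.3 CPM at day 3 under the miR-335-5p mimic, and a log2 fold change of 1.92 (95% interval 1.41 to 2.42, adjusted p = 5.078e-05). Under the NT mimic it had 52.2, 29.4 and 34.1 CPM at day 6 against 10.6, 8.34 and 9.55 CPM at day 3, and a log2 fold change of 2.02 (95% interval 1.52 to 2.53, adjusted p = 3.413e-05). The days were far apart, and at day 6 the libraries numbered 1 were the highest under both mimics. Itgb5 had 161, 144 and 169 CPM at day 6 against 109, 85.2 and 98.8 CPM at day 3 under the miR-335-5p mimic, with a log2 fold change of 0.69 (95% interval 0.45 to 0.94, adjusted p = 0.000414). Under the NT mimic Itgb5 had 166, 145 and 166 CPM at day 6 against 104, 84.4 and 95.9 CPM at day 3, with a log2 fold change of 0.75 (95% interval 0.50 to 0.99, adjusted p = 0.000237). The lowest day 6 library of either mimic was above the highest day 3 library.

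The common partners of these subunits were not called in either fit. Itgb1, the beta subunit of most matrix receptors, had a log2 fold change of -0.10 (95% interval -0.31 to 0.10, adjusted p = 0.387) under the miR-335-5p mimic and -0.10 (95% interval -0.31 to 0.11, adjusted p = 0.409) under the NT mimic. Itga5, the fibronectin receptor subunit, was at 0.09 (95% interval -0.13 to 0.32, adjusted p = 0.47) under the miR-335-5p mimic and 0.05 (95% interval -0.18 to 0.27, adjusted p = 0.733) under the NT mimic, and Itgav at 0.16 (95% interval -0.12 to 0.44, adjusted p = 0.325) under the miR-335-5p mimic and 0.20 (95% interval -0.08 to 0.48, adjusted p = 0.218) under the NT mimic. Their intervals leave room for changes of at most 0.48 on the log2 scale, which is below the fold change of Itgb5. Itga2b, the platelet partner of Itgb3, was at 2.39 to 6.62 CPM and was not called.

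**Figure D2:**
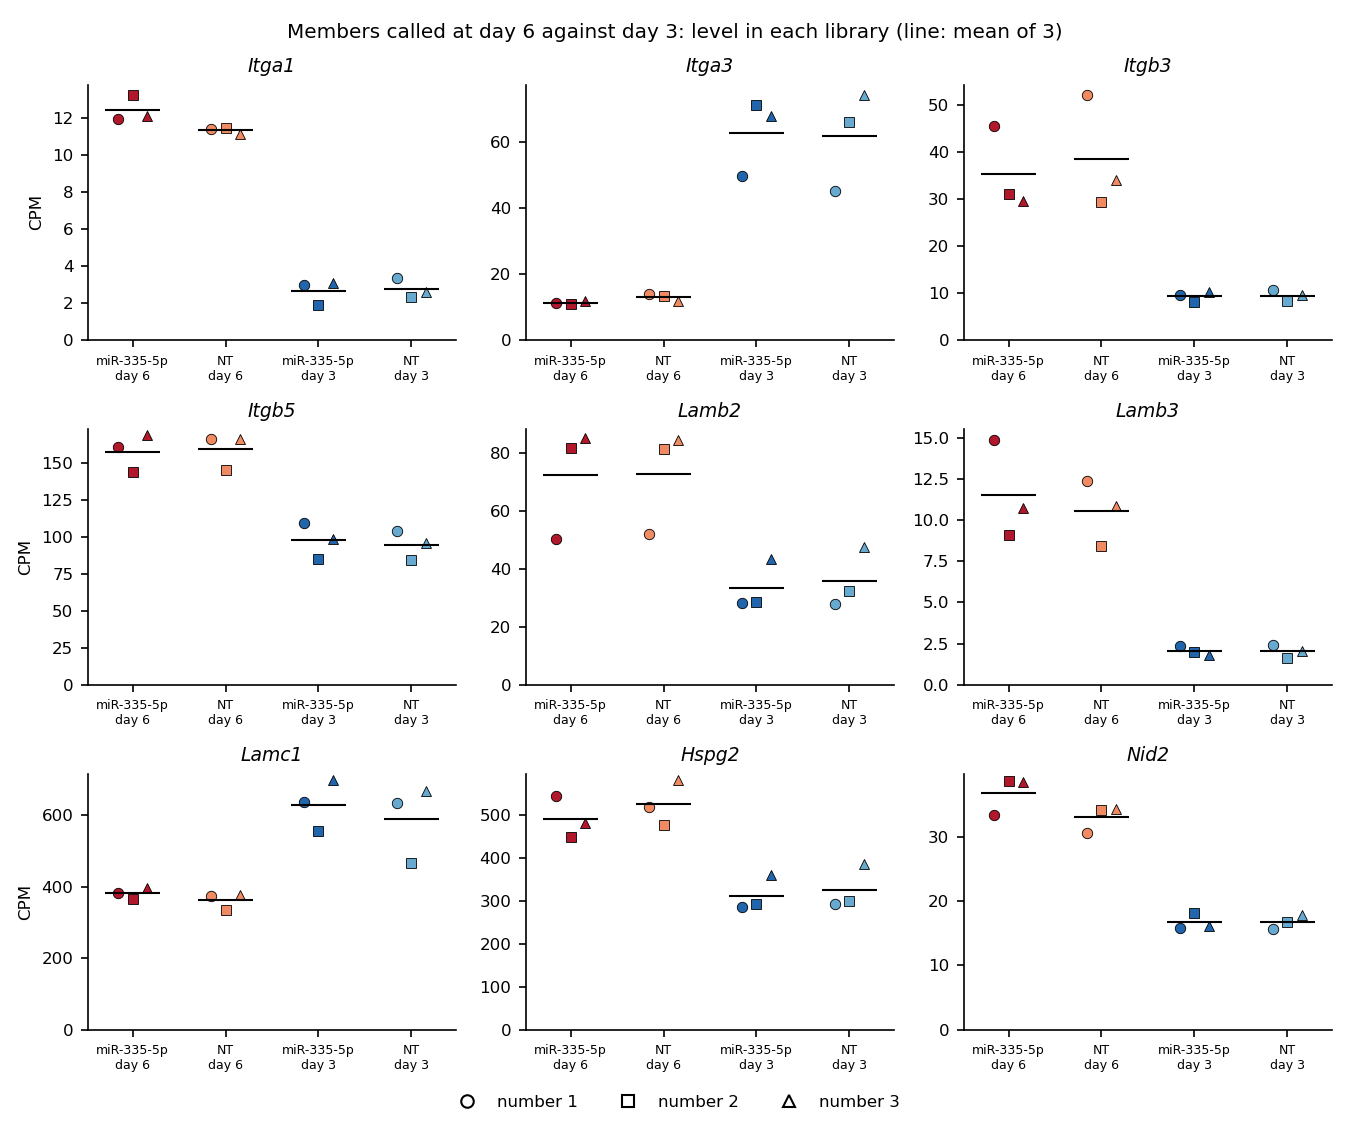
CPM in each of the 12 libraries (y axis, from 0) for the 9 members that were called at day 6 against day 3 and averaged at least 5 CPM in a group, with groups on the x axis, marker shapes for the replicate number and lines for group means. In every panel the day 6 libraries (red and orange) are separate from the day 3 libraries (blue), and in none are the 2 mimics of a day separate except for small gaps at day 6 in Itga1 and Itga3.

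Of the laminin chains, Lamc1, the gamma chain shared by most laminins, fell. It had 383, 364 and 397 CPM at day 6 against 635, 555 and 697 CPM at day 3 under the miR-335-5p mimic, and 375, 334.9 and 377 CPM at day 6 against 632, 466 and 666 CPM at day 3 under the NT mimic. No day 6 library reached the lowest day 3 library. The log2 fold change was -0.72 (95% interval -1.01 to -0.43, adjusted p = 0.000893) under the miR-335-5p mimic and -0.70 (95% interval -0.99 to -0.41, adjusted p = 0.00108) under the NT mimic. Lamb1, the beta chain that partners Lamc1 in many tissues, had 623, 967 and 1078 CPM at day 6 and 1168, 1528 and 1829 CPM at day 3 under the miR-335-5p mimic, and 620.4, 967 and 1134 CPM at day 6 and 1178, 1488 and 1789.8 CPM at day 3 under the NT mimic. The days did not overlap, but the 3 libraries of a group spread widely with their number, and Lamb1 was not called by edgeR without the block. Its log2 fold change was then -0.76 (95% interval -1.35 to -0.18, adjusted p = 0.0329) under the miR-335-5p mimic and -0.71 (95% interval -1.30 to -0.13, adjusted p = 0.0435) under the NT mimic. With the block it was lower, at -0.78, adjusted p = 3.73e-06 under the miR-335-5p mimic and -0.73, adjusted p = 5.574e-06 under the NT mimic. DESeq2 called it without the block under the miR-335-5p mimic but not under the NT mimic. Lama4, an alpha chain of vessel and adipocyte basement membranes, was likewise called lower with the block and not without it by edgeR, at -0.31, adjusted p = 0.00542 under the miR-335-5p mimic and -0.29, adjusted p = 0.00751 under the NT mimic, from 156 to 197 CPM at day 6 and 179 to 245 CPM at day 3. Lama5, an alpha chain of many epithelial and vessel basement membranes, was not called in either fit, at -0.12 (95% interval -1.21 to 0.98, adjusted p = 0.867) under the miR-335-5p mimic and -0.24 (95% interval -1.35 to 0.86, adjusted p = 0.713) under the NT mimic.

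Lamb2, the other widespread beta chain, went the opposite way to Lamb1. It had 50.2, 81.6 and 85.3 CPM at day 6 against 28.2, 28.7 and 43.4 CPM at day 3 under the miR-335-5p mimic, and 52.1, 81.3 and 84.4 CPM at day 6 against 27.9, 32.2 and 47.5 CPM at day 3 under the NT mimic. Every day 6 library was above every day 3 library, with the number 1 libraries low on both days. The log2 fold change was 1.11 (95% interval 0.51 to 1.72, adjusted p = 0.00613) under the miR-335-5p mimic and 1.02 (95% interval 0.41 to 1.62, adjusted p = 0.00979) under the NT mimic. This call lay near the threshold and was lost without replicate 1 or 2 of day 3 or replicate 2 or 3 of day 6 of the mimic compared, with adjusted p from 0.0236 to 0.0286 for the miR-335-5p mimic and from 0.0356 to 0.0398 for the NT mimic. With the block it was 1.10, adjusted p = 1.002e-05 under the miR-335-5p mimic and 1.02, adjusted p = 1.787e-05 under the NT mimic.

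The proximal promoters of Lamb1 and Lamb2 are shown because these chains of like function moved in opposite directions. RefSeq gives the windows, from 250 bases before to 50 after the annotated start, as chr12:31265043-31265342 for Lamb1 and chr9:108479612-108479911 for Lamb2, both on the plus strand of GRCm38.p6. Capitals mark matches, on either strand, to 4 motifs. The GC box was searched as GGGCGG and the AP-1 motif as TGANTCA. The CCAAT box was searched by the letters of its name, and the TATA box was searched as TATAAA.
Lamb1: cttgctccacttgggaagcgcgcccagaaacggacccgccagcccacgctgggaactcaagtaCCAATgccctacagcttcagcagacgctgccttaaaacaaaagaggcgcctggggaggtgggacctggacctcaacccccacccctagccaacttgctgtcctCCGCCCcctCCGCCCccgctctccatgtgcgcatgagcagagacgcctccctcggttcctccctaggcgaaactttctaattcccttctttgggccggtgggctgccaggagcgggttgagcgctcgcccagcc
Lamb2: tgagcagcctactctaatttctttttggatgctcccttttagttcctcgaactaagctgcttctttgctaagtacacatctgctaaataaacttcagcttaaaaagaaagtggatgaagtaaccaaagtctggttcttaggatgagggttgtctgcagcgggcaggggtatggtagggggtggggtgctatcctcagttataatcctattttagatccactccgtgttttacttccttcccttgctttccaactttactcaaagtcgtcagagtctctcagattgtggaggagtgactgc
The Lamb1 window was 63.7% G and C and held 2 GC boxes, beginning 84 and 75 bases before the start, and a CCAAT box beginning 187 bases before it, none of which overlapped. The Lamb2 window was 44.0% G and C and held none of these letters. Among all 32851 promoters of that length, 35.7% held the GC box, 37.4% the CCAAT box, 13.6% the TATA box and 7.81% the AP-1 motif. Promoters were found for 25 of the 39 members, of which 14 held a GC box, 5 a CCAAT box, 3 an AP-1 motif and 0 a TATA box.

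Lamb3 is the beta chain of the laminin that anchors epithelia through Itgb4. It had 14.9, 9.08 and 10.7 CPM at day 6 against 2.35, 1.98 and 1.82 CPM at day 3 under the miR-335-5p mimic, and 12.4, 8.40 and 10.8 CPM at day 6 against 2.44, 1.64 and 2.05 CPM at day 3 under the NT mimic. The days were well separated, and the log2 fold change was 2.49 (95% interval 1.96 to 3.02, adjusted p = 1.074e-05) under the miR-335-5p mimic and 2.36 (95% interval 1.83 to 2.89, adjusted p = 1.528e-05) under the NT mimic. Lama3, the alpha chain of that laminin, had at most 1 count in any library. The 7 epithelial markers in the table also summed to more at day 6, 19.6 to 55.4 CPM against 1.94 to 9.03 CPM at day 3, mostly Krt8 and Krt18, with Cdh1 and Cldn4 at means of at most 0.0170 CPM. Their part in the level of Lamb3 was not tested.

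Of the glycoproteins that join the networks, perlecan and nidogen 2 rose. Hspg2 had 544, 448 and 482 CPM at day 6 against 285, 292 and 359 CPM at day 3 under the miR-335-5p mimic, and 519, 477 and 580.4 CPM at day 6 against 293, 299 and 386 CPM at day 3 under the NT mimic. The days did not overlap, with a log2 fold change of 0.65 (95% interval 0.36 to 0.95, adjusted p = 0.00203) under the miR-335-5p mimic and 0.69 (95% interval 0.39 to 0.99, adjusted p = 0.00146) under the NT mimic. The call under the miR-335-5p mimic was lost without its day 3 replicate 1 (adjusted p = 0.0114) or 2 (adjusted p = 0.0116). Nid2 had 33.3, 38.7 and 38.6 CPM at day 6 against 15.9, 18.2 and 16.1 CPM at day 3 under the miR-335-5p mimic, and 30.6, 34.2 and 34.3 CPM at day 6 against 15.7, 16.8 and 17.9 CPM at day 3 under the NT mimic. These groups were tight and far apart, at 1.14 (95% interval 0.92 to 1.36, adjusted p = 5.707e-06) under the miR-335-5p mimic and 0.98 (95% interval 0.75 to 1.20, adjusted p = 1.713e-05) under the NT mimic. Nid1, the more abundant nidogen, was at 860 to 1052 CPM at day 6 and 825.5 to 1087 CPM at day 3 and was not called. Under each mimic Nid1 was higher at day 6 than at day 3 in the libraries numbered 1 and lower in those numbered 2 and 3. Its log2 fold change was -0.03 (95% interval -0.32 to 0.25, adjusted p = 0.845) under the miR-335-5p mimic and -0.01 (95% interval -0.30 to 0.27, adjusted p = 0.943) under the NT mimic. Agrn was at 38.2 to 64.1 CPM at day 6 and 45.3 to 69.2 CPM at day 3 and was not called either, at -0.19 (95% interval -0.63 to 0.24, adjusted p = 0.443) under the miR-335-5p mimic and -0.10 (95% interval -0.54 to 0.33, adjusted p = 0.686) under the NT mimic.

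Counts were divided by transcript length to order the chains within a family, as CPM per kilobase of the median annotated transcript. Lama4 made up 97.3% ± 0.804 of the laminin alpha level under the miR-335-5p mimic and 97.6% ± 0.788 under the NT mimic at day 6 (SD, n = 3 each), and Lamc1 made up 98.3% ± 0.946 and 98.3% ± 0.634 of the gamma level. Lamb1 was the main beta chain on both days, at 90.7% ± 0.906 and 91.0% ± 1.01 at day 6 against 97.6% ± 0.316 and 97.5% ± 0.242 at day 3. The main laminin transcripts were thus those of an alpha 4, beta 1 and gamma 1 chain on each day. The share of Lamb2 in the beta chains was 7.44% ± 0.261 under the miR-335-5p mimic and 7.41% ± 0.454 under the NT mimic at day 6, against 2.18% ± 0.288 and 2.35% ± 0.236 at day 3, and its lowest day 6 library (6.89%) was above its highest of day 3 (2.6%).

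Among the integrin beta subunits, Itgb1 led with 54.6% ± 0.822 and 53.1% ± 0.685 of the level at day 6, against 69.1% ± 3.97 and 69.0% ± 2.34 at day 3. Itgb5 followed with 40.0% ± 1.79 and 40.8% ± 0.603 at day 6, against 29.2% ± 3.85 and 29.3% ± 2.23 at day 3. The order of Itgb1, Itgb5 and Itgb3 was the same on both days and their shares did not overlap. Among the alpha subunits Itga6, Itga5 and Itga7 were the most abundant per kilobase at day 6, at 58.1 ± 13.9, 40.9 ± 2.54 and 37.1 ± 0.750 CPM per kilobase under the miR-335-5p mimic and 53.3 ± 18.5, 39.8 ± 4.33 and 36.0 ± 1.04 under the NT mimic. Under the NT mimic the libraries of neighbours in this order overlapped, Itga6 with Itga5 and Itga5 with Itga7, whereas under the miR-335-5p mimic the 3 ranges lay next to each other without overlap, so the order of the 3 is not beyond their spread in both groups. Itgav was lower, at 10.3 ± 1.00 and 10.3 ± 1.05 CPM per kilobase. Itga3 held 1.58% ± 0.145 and 1.91% ± 0.228 of the alpha level at day 6, against 10.4% ± 3.06 and 10.8% ± 3.89 at day 3.

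**Figure D3:**
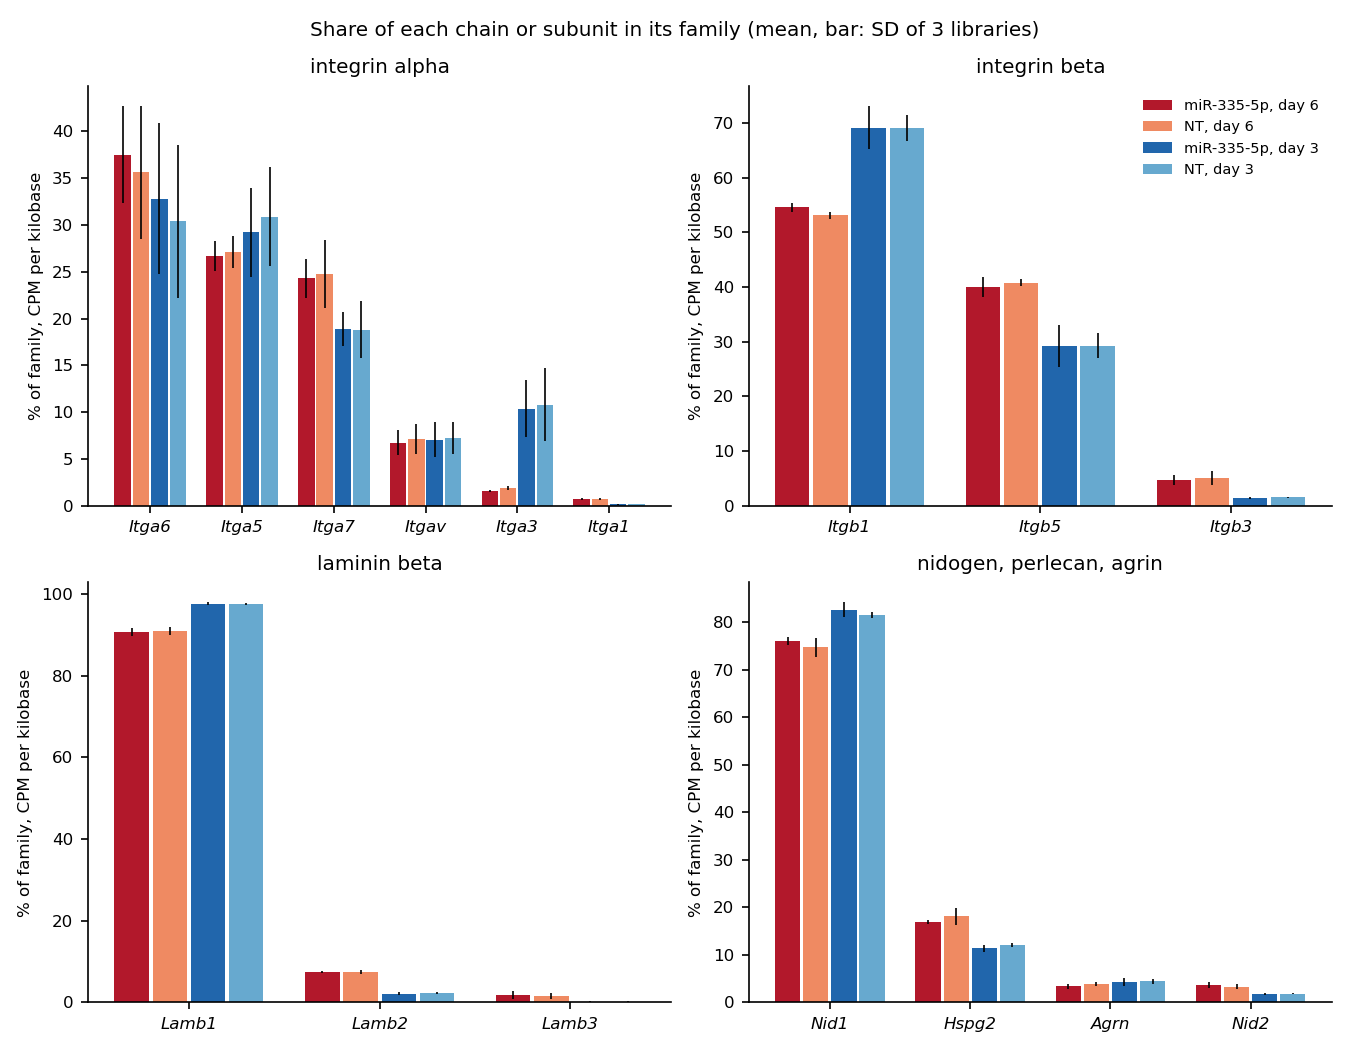
Share of the main subunits or chains in the summed CPM per kilobase of its family (y axis, percent) for the 4 groups, as means of 3 libraries with SD bars. Day 6 bars (red and orange) are higher than day 3 bars (blue) for Itga1, Itgb5, Itgb3, Lamb2, Lamb3, Hspg2 and Nid2 and lower for Itga3, Itgb1, Lamb1 and Nid1. Mean shares of Itga7 and Itga6 were also higher at day 6, and those of Itga5, Itgav and Agrn lower. For these the libraries of the days overlapped under the NT mimic or under both mimics.

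Leukocyte integrin subunits were near the detection limit at day 3, where 3 counts correspond to 0.168 to 0.181 CPM, so their levels are given as counts. Itgb2, their shared beta subunit, had 41, 55 and 34 counts at day 6 and 4, 2 and 10 counts at day 3 under the miR-335-5p mimic, and 40, 76 and 55 counts at day 6 and 2, 6 and 5 counts at day 3 under the NT mimic. Itgad had 90, 30 and 19 counts at day 6 and 1, 0 and 0 counts at day 3 under the miR-335-5p mimic, and 90, 40 and 13 counts at day 6 and 1, 0 and 1 counts at day 3 under the NT mimic. Itgal had 29, 8 and 6 counts at day 6 and 1, 1 and 2 counts at day 3 under the miR-335-5p mimic, and 20, 5 and 13 counts at day 6 and 0, 1 and 2 counts at day 3 under the NT mimic. These 3 genes entered the test only through their day 6 libraries and had to differ, so their separation between days is not read as a result. Itgam, the alpha subunit of macrophages, had 0 counts in all 12 libraries, and Itgax had at most 5. The 10 leukocyte markers summed to 4.53 to 12.6 CPM at day 6 and 0.480 to 2.33 CPM at day 3, mostly Cd14 and Cd68, whereas Tyrobp and Coro1a were at 0 in every library and the group means of Ptprc, which marks all leukocytes, were at most 0.0168 CPM.

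Itgb4, the partner of Itga6 in hemidesmosomes, had 10, 10 and 16 counts at day 6 and 0, 0 and 0 at day 3 under the miR-335-5p mimic, and 18, 12 and 9 counts at day 6 and 1, 0 and 1 counts at day 3 under the NT mimic. Lama2, the alpha chain of muscle and nerve laminin, had 38, 47 and 45 counts at day 6 and 0, 2 and 0 counts at day 3 under the miR-335-5p mimic, and 23, 46 and 46 counts at day 6 and 0, 0 and 4 counts at day 3 under the NT mimic. Both were nearly absent at day 3 and low at day 6. The 5 muscle markers in the table summed to 32.3 to 55.8 CPM at day 6 and 8.52 to 20.6 CPM at day 3, mostly Acta2, Myh11 and Des. Cnn1 went the other way, averaging 0.151 and 0.120 CPM at day 6 under the miR-335-5p and the NT mimic, against 0.269 and 0.510 CPM at day 3. The group means of Ckm were at most 0.0186 CPM. The 4 Schwann cell markers summed to 1.31 to 2.31 CPM at day 6 and 0.469 to 1.02 CPM at day 3. The part of these markers in the level of Lama2 was not tested. Itgae, which pairs with Itgb7 to bind E-cadherin, rose within 1.38 to 4.11 CPM, at 1.00 (95% interval 0.54 to 1.45, adjusted p = 0.00205) under the miR-335-5p mimic and 0.96 (95% interval 0.51 to 1.42, adjusted p = 0.00238) under the NT mimic. That call was lost without miR-335-5p day 3 replicate 2, NT day 3 replicate 3, or NT day 6 replicate 2 or 3, and its partner Itgb7 was at 0.117 to 0.455 CPM and was not tested.

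Genes that work with the members were counted in lists drawn up by function, and examples are the called genes with the lowest adjusted p in each direction under the NT mimic. Over all genes tested, 18.2% were higher and 16.5% lower under the miR-335-5p mimic, and 18.8% and 16.7% under the NT mimic. Of 11 other basement membrane genes tested, 4 were higher and 2 lower under the miR-335-5p mimic, and 5 and 2 under the NT mimic, with a median log2 fold change of 0.74 and 0.71 beside the 0.02 and 0.03 of all genes. Both of the lower genes encode the main collagen IV chains, and Col4a1 averaged 3231 and 3306 CPM at day 6 under the miR-335-5p and the NT mimic, against 8175 and 8062 CPM at day 3 (log2 fold change -1.34, adjusted p = 5.922e-06, and -1.29, adjusted p = 8.146e-06). Sparc, a collagen-binding glycoprotein, averaged 1235 and 1258 CPM at day 6, against 387 and 372 CPM at day 3 (1.68, adjusted p = 4.413e-06, and 1.76, adjusted p = 3.108e-06). Of 15 integrin ligands tested, 11 were higher under each mimic, with 0 lower under the miR-335-5p mimic and 1 under the NT mimic, and the medians were 1.84 and 2.16. Tnc, among the higher ligands, averaged 3.78 and 4.97 CPM at day 6, against 0.389 and 0.395 CPM at day 3. A gene this low at day 3 may have been tested only through its day 6 libraries, so nothing is read from its call. The counts and medians of the ligands include Tnc. Ccn1, a ligand of Itgav integrins, had a log2 fold change of 2.31 (adjusted p = 9.413e-06) and 2.32 (adjusted p = 8.787e-06). Tgfb1, whose latent form binds Itgav integrins, was at -0.50 (adjusted p = 0.0148, not called) and -0.61 (adjusted p = 0.00472). The fibrillar collagen transcripts Col1a1, Col1a2 and Col3a1 and fibronectin (Fn1) were among the ligands that rose.

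Inside the cell, of 23 adaptors that couple integrins to actin or to signalling, 7 were higher and 5 lower under the miR-335-5p mimic, and 7 and 6 under the NT mimic, with medians of 0.15 and 0.11. Flna, an actin crosslinker that binds beta subunits, had a log2 fold change of 2.90 (adjusted p = 4.043e-06) under the miR-335-5p mimic and 3.06 (adjusted p = 2.873e-06) under the NT mimic. Ptk2, the focal adhesion kinase, was lower, at -0.53 (adjusted p = 0.000317) and -0.56 (adjusted p = 0.000207). Of 7 other laminin receptors tested, with medians of -0.22 under the miR-335-5p mimic and -0.20 under the NT mimic, 1 was higher under each mimic, the syndecan Sdc3 (1.71, adjusted p = 3.429e-07, and 1.68, adjusted p = 3.928e-07), while Sdc1 was called lower under the miR-335-5p mimic (-0.69, adjusted p = 0.00504) and stood at -0.56 under the NT mimic (adjusted p = 0.0160, not called). Sdc2 was at -0.92 (adjusted p = 0.0136) and -0.95 (adjusted p = 0.0113) under these mimics and was not called. Of 8 tetraspanins and partners, 5 were higher and 0 lower under each mimic, with medians of 0.54 and 0.52, led by Cd63 (1.18, adjusted p = 4.234e-06, and 1.14, adjusted p = 5.17e-06).

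The miR-335-5p mimic was compared with the NT mimic on each day to ask whether it changed the members. At day 6 it called 0 of the 29 members and 0% of all genes, and at day 3 likewise 0 of the 29 and 0% of all genes. At an unadjusted p below 0.05, 0 members were found on either day, beside 21 of 11703 genes at day 6 and 59 at day 3, and DESeq2 also called 0 members. The difference between the mimic effects of the 2 days was called for 0 members and 0% of all genes, with 0 members and 29 genes at an unadjusted p below 0.05. For the 24 members that passed the filter on both days the log2 fold change lay between -0.35 and 0.23 at day 6 and between -0.31 and 0.17 at day 3. The 95% interval stayed within 1 log2 unit either way for 20 of the 24 on each day, and within 0.5 for 10 at day 6 and 11 at day 3.

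**Figure D4:**
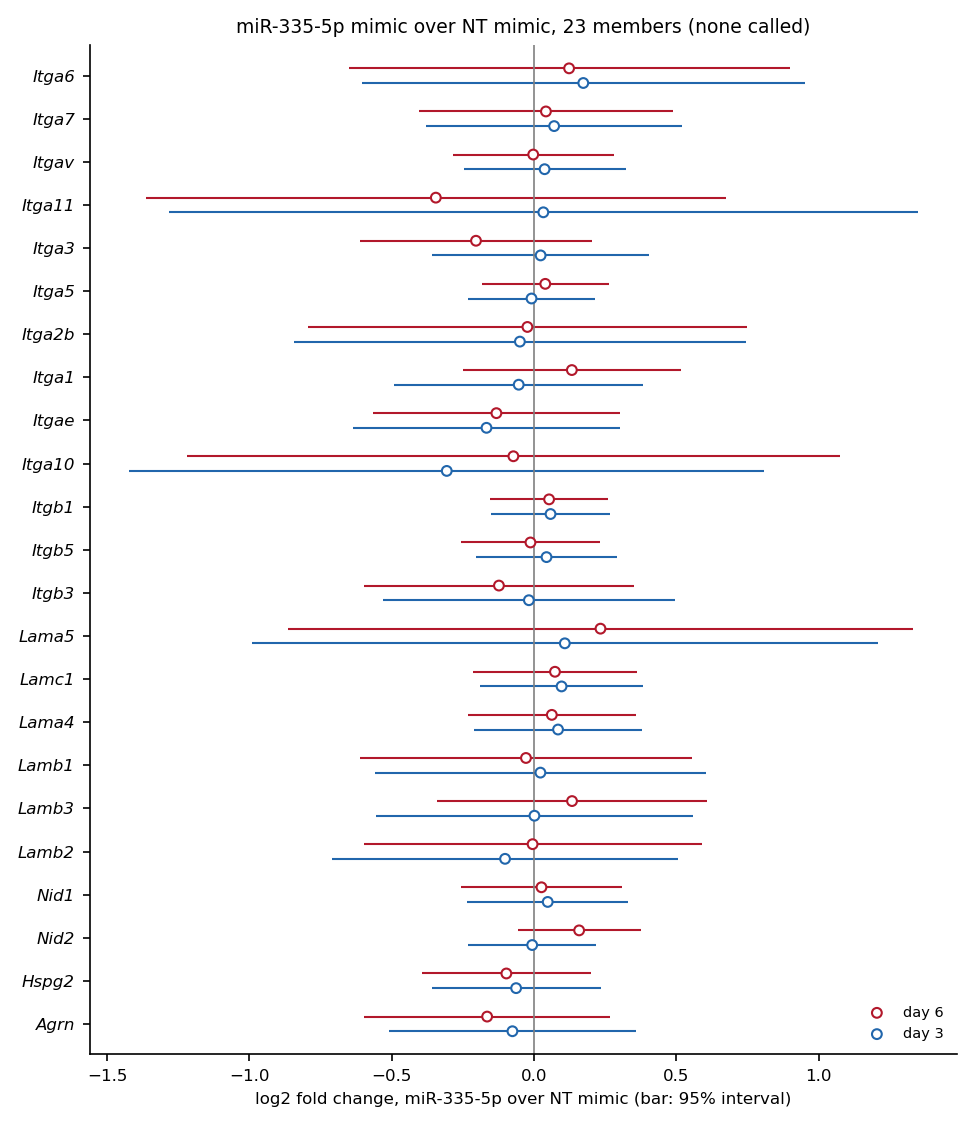
Log2 fold change of the miR-335-5p mimic over the NT mimic (x axis) for 23 of the 24 members that passed the filter on both days (y axis), with day 6 above day 3 in each row and 95% intervals as bars. Every interval includes 0, and those of Itga10, Itga11 and Lama5, which have few counts or vary with the replicate number, are the widest plotted.

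The members with the lowest p at day 6 were Nid2, Itga3 and Itgb2. Nid2, which holds a seed match, was at 33.3, 38.7 and 38.6 CPM under the miR-335-5p mimic and 30.6, 34.2 and 34.3 CPM under the NT mimic, with overlapping groups and a log2 fold change of 0.16 (95% interval -0.06 to 0.37, adjusted p = 1). Itga3 was at 11.3, 10.9 and 11.8 CPM under the miR-335-5p mimic and 14.1, 13.3 and 11.9 CPM under the NT mimic. These groups did not overlap but differed little beside the change between days, at -0.20 (95% interval -0.61 to 0.20, adjusted p = 1). Itgb2, at the counts given above, was at -0.41 (95% interval -1.30 to 0.47, adjusted p = 1). At day 3 the lowest p belonged to Itgb4, which had 0 to 1 counts in a library and gets no fold change, to Itgae at -0.17 (95% interval -0.64 to 0.30, adjusted p = 1) and to Lamc1 at 0.10 (95% interval -0.19 to 0.38, adjusted p = 1). Itgae was then at 2.07, 1.38 and 1.76 CPM under the miR-335-5p mimic and 1.99, 2.05 and 1.81 CPM under the NT mimic. The other seed-match genes were also within their spread, with Hspg2 at -0.10 (95% interval -0.39 to 0.20, adjusted p = 1) at day 6 and -0.06 (95% interval -0.36 to 0.23, adjusted p = 1) at day 3, and Itga11 at -0.35 (95% interval -1.36 to 0.67, adjusted p = 1) at day 6 and 0.03 (95% interval -1.28 to 1.35, adjusted p = 1) at day 3.

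When each day was fitted with a block for the number, 0 members were called. The 95% intervals of the 24 members were then all within 1 log2 unit either way on both days, and within 0.5 for 21 at day 6 and 19 at day 3. In that fit 4 members had an unadjusted p below 0.05 at day 6, which were Agrn (-0.17, 95% interval -0.29 to -0.05), Itga6 (0.15, 0.02 to 0.28), Nid2 (0.16, 0.02 to 0.30) and Itga3 (-0.20, -0.40 to -0.01), with adjusted p from 0.691 to 0.981. Of all 11703 genes 593 were below that p at day 6 and 853 at day 3. Among the members at day 3 it was Itga6 alone (0.19, 0.05 to 0.32, adjusted p = 0.499). Over all genes this fit called 0% at day 6 and 0.0342% at day 3, which were 4 genes, none of them a member.

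Levels also differed by replicate number. In a fit with the group and the number, 12 of the 29 members differed between numbers (18.7% of all genes did). Among them were Lamb1, Itga6, Agrn, Lamb2, Lama5, Itgav, Lamb3, Itgb5 and Itgb3. Number 1 was the highest on average for 7 of them, number 3 for 4 and number 2 for 1. For 7 of the 12 the same number was highest in all 4 groups, and for 5 the same number was lowest in all 4. The count fell to 6 without NT day 6 replicate 1, and to 7 without NT day 6 replicate 2 or 3, NT day 3 replicate 3 or miR-335-5p day 6 replicate 1.

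The lowest p belonged to Lamb1, which averaged 897, 1237 and 1458 CPM over the 4 libraries numbered 1, 2 and 3 (adjusted p = 4.203e-05 by edgeR). Within each group, as listed above, its order was number 1, then 2, then 3, and Lamb2 was lowest in number 1 and highest in number 3 in each group too, averaging 39.6, 56.0 and 65.2 CPM (adjusted p = 0.00127). Itga6 ran the other way, at 287, 170 and 163 CPM (adjusted p = 0.000155), and was highest in number 1 in all 4 groups. Itgad averaged 2.31, 0.875 and 0.427 CPM (adjusted p = 0.000238), with almost all of its counts at day 6. The laminin chain Lama5 averaged 7.99, 3.95 and 3.95 CPM (adjusted p = 0.00307) and was highest in number 1 in all 4 groups. What the numbers stand for is not given in the labels. For Lamb1 the highest number averaged 1.62 times the lowest and for Itga6 1.76 times. These averages lay closer for Nid1 (1.08 times), Itgb1 (1.08 times) and Itga1 (1.03 times), which were not called. They pool both days, however, and Nid1 was highest in number 1 at day 6 but lowest in it at day 3 under both mimics. At day 3 Itga1 was lowest in number 2 under both mimics.

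**Figure D5:**
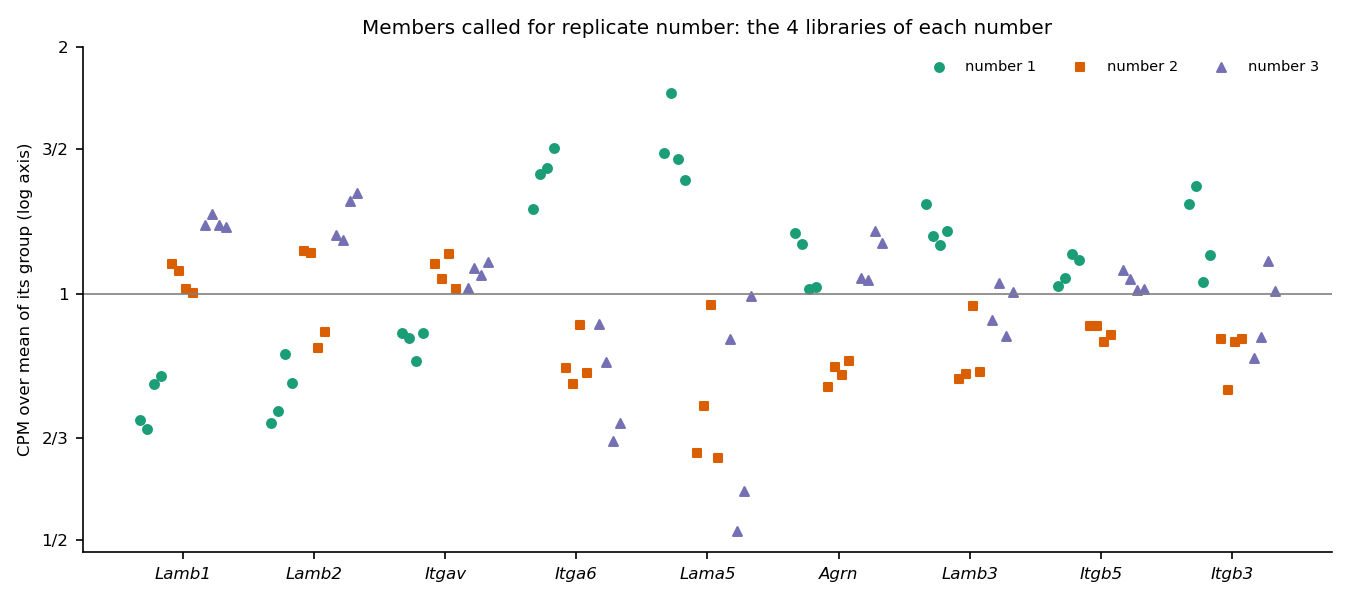
CPM of each library over the mean of its group (y axis, log scale) for 9 of the 12 members called for replicate number, with 4 points for the 4 groups per number. The libraries numbered 1 are all below the line at 1 for Lamb1, Lamb2 and Itgav and all above it for Itga6, Lama5, Agrn, Lamb3, Itgb5 and Itgb3.

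The 10 members that were not tested were Itga2, Itga4, Itga8, Itga9, Itgam, Itgax, Itgb7, Itgb8, Lama3 and Lamc3. None exceeded 0.455 CPM in any library, so the alpha subunits of lymphocyte and smooth muscle integrins (Itga4, Itga8 and Itga9) and the gamma chain Lamc3 were at or near the detection limit. Of these, Itgb7 and Itga2, a collagen-binding subunit, had the most counts.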

How the data were processed

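Reads of the 12 libraries were sequenced at BGI, and the authors deposited gene-level estimated counts. HISAT2 2.2.1, RSEM 1.3.1 and build mm39 appear in the submitters' processing notes without roles. The annotation was not given in the sources used here. Neither was the strand setting, and overlapping and antisense genes are therefore uncertain. Of the deposited estimated counts 3.37% were not whole (tolerance 1e-06), and all were rounded. A RefSeq GRCm38.p6 symbol was found for 16387 identifiers, and 27 had none. Totals were 17690653 to 18936781 counts, and the floor of 3 counts covers counting error only.

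Genes were filtered (filterByExpr by group), TMM-scaled and tested with edgeR 4.0.16 in R 4.3.3 (quasi-likelihood, robust, all 12 libraries in 1 fit, 11703 genes), with Benjamini-Hochberg adjusted p below 0.01 over all genes as the threshold of a call. All p-values are two-sided. The script was checked on simulated counts. Alternatives were RLE factors, DESeq2 1.42.0, other filters, a threshold of 0.05, only the groups compared, the replicate number as a block and leaving out each library. Members called in a day comparison that averaged at least 5 CPM in a group are given library by library, as are the 3 members of lowest p in each mimic comparison and for replicate number. Values of 1 tested member are not reported here, though it is in the counts. The members, lists and tests were chosen with earlier results of these data known.

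Same-numbered libraries deviated together from their group means, with correlations of 0.253 to 0.825 over 18 pairs (-0.688 to 0.312 over 36 pairs of different numbers). The main tests of day and mimic do not use this pairing. It enters only the fits with the replicate number as a block, which are given beside them. The pairing comes from the data, since the labels give only the number. Libraries within a group differed by 11.2 to 53.0 chi-square per degree of freedom. The 6 pairs of the same day and number under different mimics were closer, at 3.31 to 8.66, and none looked like a copy of another. Transcript lengths and 3′ UTRs are those of protein-coding transcripts in the GENCODE M21 basic set (GRCm38), chosen after lengths that included fragments were seen. That build differs from mm39, so no coordinates of the deposited table are given.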

Additional observations from a re-analysis of the deposited data

How the results depend on the processing

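The count of members called at day 6 against day 3 was 15 under each mimic, and 12 to 16 under RLE factors, DESeq2, other filters and a fit of the compared groups alone. It was 19 at an adjusted p below 0.05. With the replicate block it was 21 under each mimic, in edgeR and in DESeq2, and the same 15 were among them. All of these counts include calls among the 5 members that entered the test only through their day 6 libraries. Nothing is read from those, of which Itgal was a gain. The other gains included Itga6 and Itga7 (higher) and Lama4 and Lamb1 (lower). Of these, settings without the block at the threshold of 0.01 also called Itga7 (without NT day 3 replicate 1) and Lamb1 (DESeq2, miR-335-5p mimic). At an adjusted p below 0.05 edgeR without the block called Itga7 and Lamb1 under each mimic. Leaving out 1 library gave 11 to 15 members under the miR-335-5p mimic and 13 to 15 under the NT mimic. No member was called between the mimics, or for the difference of the mimic effects, under any setting run, the replicate block included.

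For the members called in the main fit that averaged at least 5 CPM in a group, no direction between days changed under these settings. Among them the calls of Lamb2 and Hspg2 were the ones lost. Lamb2 was also lost without a filter on low counts (adjusted p = 0.0112 under the miR-335-5p mimic and 0.0172 under the NT mimic) and, under the NT mimic, with only the compared groups in the fit (adjusted p = 0.0129). The 12 members called for replicate number were 11 with RLE factors and 16 at an adjusted p below 0.05, and leaving out 1 library gave 6 to 9. Per kilobase of the longest transcript, Itgb1 held 54.7% of the beta subunits at day 6 under the NT mimic, against 53.1% with the median transcript, and in that group the leading member of each other family moved by at most 0.3 percentage points. Depth limits Itgal and Itgb4, which had at most 29 and 18 counts in any library, and the untested members, which had at most 9.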
